A study of Mus musculus with 4 samples.

Results

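Genes of the sine oculis homeobox (Six2, Six4 and Six5) and eyes absent (Eya1 to Eya4) families were followed in mouse gastrocnemius, a fast-type calf muscle, across exercise and cancer. They were taken by symbol from the 23282 gene rows of the deposited files, and all 7 members (Six2, Six4, Six5, Eya1, Eya2, Eya3 and Eya4) had 1 row each. The muscle came from CDF1 mice labelled postnatal day 28, described as male in the methods. There, 4 weeks is the age at purchase, and the muscle was taken later, at the end of the experiment. The design crossed high-intensity treadmill running (E) with a tumor (T), for which CT26 mouse colorectal carcinoma cells had been given by tail vein. The 4 samples were 1 library each: normal control, without exercise or tumor (E-T-), then normal exercise (E+T-), then cancer control, with the tumor alone (E-T+), and last cancer exercise, with both (E+T+). Where values are listed in one sentence they follow this order unless groups are named. The design text names 10 mice per group, and the paper describes a representative mouse for sequencing, so whether a library pools animals was not settled. With 1 library a group no difference has a replicate check, and no p-value is given. Intervals are 95% intervals for counting error in the reads of a library, and they leave out the differences between animals.

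Sine oculis homeobox proteins are homeodomain transcription factors that bind the MEF3 element in muscle promoters. EYA proteins do not bind DNA themselves and act as their coactivators, with a phosphatase domain of their own, while DACH proteins work with the same factors as corepressors. In skeletal muscle the network is known for activating myogenic regulators and for maintaining the fast fibre programme.

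The binding element is shown here because it is a sequence these factors recognise in muscle genes. The targets compared later were taken from a list and not by motif. MEF3 was searched as TCAGGTT on both strands of RefSeq promoter windows (GRCm38.p6, the build of mm10; 250 bases before to 50 after each start). Only these exact letters were searched, so a window counted as without the element may still hold a variant of it. Windows were found for 5 of the 7 members. The element was present in 1 of their 7 windows, that of a Six4 start, against 4.07% of 32851 windows overall. Among 20 muscle genes known to be bound by these factors, 14 had a window and the element was found in 1 of 17 windows, that of Myog, the gene of the myogenic differentiation factor myogenin. A match of these letters is a description of the sequence and not a site shown to be bound. Both are printed along the strand of the motif, with the element in capitals, the Myog match within a longer stretch of its promoter:
Myog, chr1:134289854-134289973, plus strand: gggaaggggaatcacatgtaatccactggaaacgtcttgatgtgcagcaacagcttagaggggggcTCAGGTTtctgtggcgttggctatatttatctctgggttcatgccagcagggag
Six4, chr12:73113326-73113352, plus strand: atctggccgaTCAGGTTtcccccaggc
The Myog element began 84 bases before the start (position -84) and lay on the strand of the gene. The Six4 element occupied positions -97 to -91 of an inner start, on the strand opposite to the gene. In GENCODE M21 it falls in the first exon, before the coding part, of 1 Six4 transcript and in an intron of another.

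QuantSeq reads start near the 3′ ends of messenger RNAs, so counts do not scale with transcript length. Levels of different genes are set side by side on that basis. How fully the 3′ end of each gene was counted was not checked, so orders between genes are approximate. The libraries held about 10647483 to 13226061 reads, and 3 reads, the limit taken for a count of 0, were at most 2.82e-05% of a library. Values are normalized read counts, that is, the deposited log2 values unlogged, and fold changes are differences of log2(normalized read count + 1). A gene was called changed at 2-fold or more, provided that either library of the pair reached 4 normalized reads. Muscle fibre markers were abundant in all libraries, with Acta1, skeletal actin, at a normalized read count of 134800 or more. Of the 6 markers 3 were at least 2-fold lower in cancer control than in normal control, where 24.2% of all genes were. Epidermal genes stood apart in cancer control. All 7 epidermal markers had reads there, with a summed normalized read count of 775, against 87.0 to 200.1 in the other libraries. Of them 6 were at least 2-fold above normal control, where 20.9% of all genes were. Of the 7, 5 were without reads in cancer exercise, and 4 were in each library without a tumor. The comparison of cancer exercise with normal exercise, and that of normal exercise with normal control, do not use the cancer control library.

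**Figure D1:**
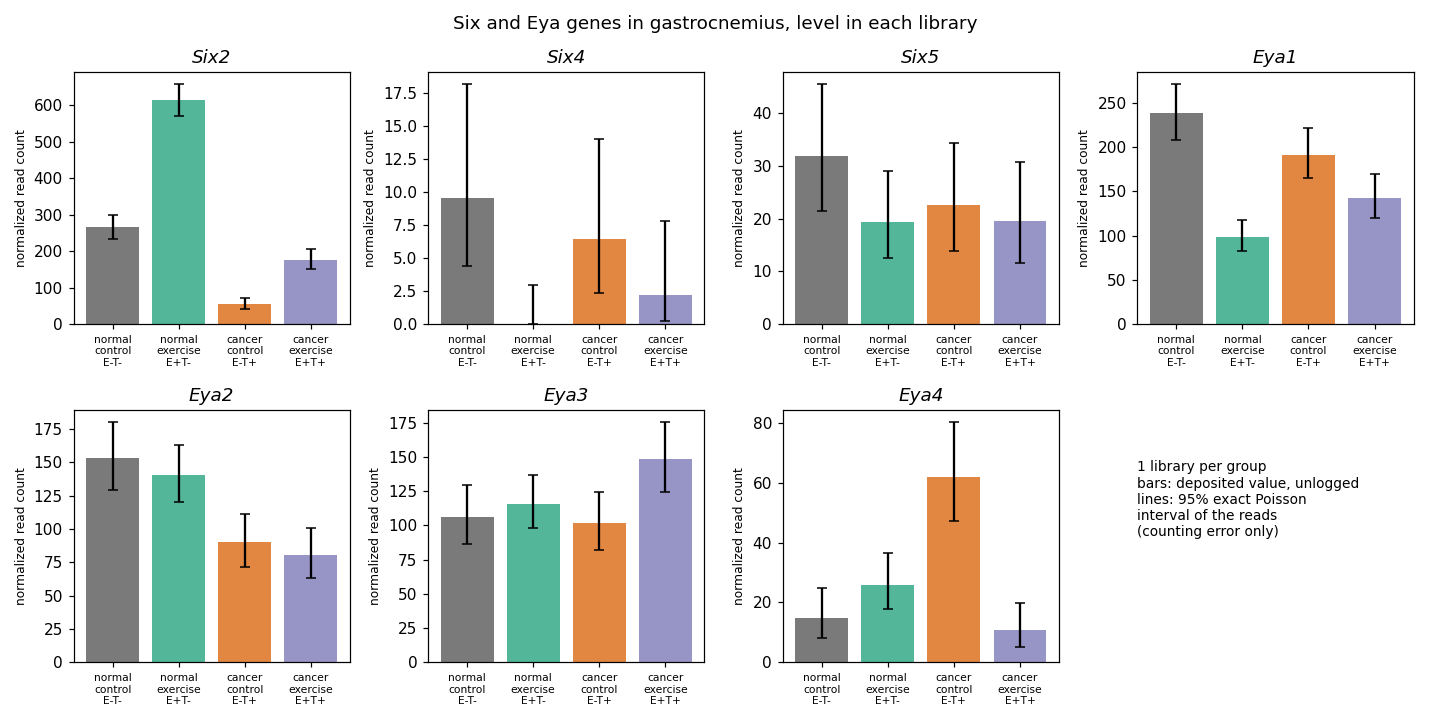
Normalized read count (y axis, linear, from 0, a different scale in each panel) of the 7 genes in the 4 libraries (x axis). Bars are single libraries and lines are 95% exact Poisson intervals of the reads; Six2 ran from 54.7 in cancer control to 613 in normal exercise, and Six4 had at most 9.51.

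Six2, a factor best known for keeping nephron progenitors undifferentiated and for expression in limb connective tissue, had the highest mean level of the 7 members. It was one of the genes the study selected on these libraries for changing at least 2-fold in 3 comparisons, so its differences are given as a description. The paper also lists Six2 among the genes it checked by RT-qPCR in littermates, and reports a change like that of the sequencing. Its discussion, however, leaves Six2 out of the muscle genes it names as changing in opposite directions with exercise and cancer. The RT-qPCR measurements of Six2 are not part of these libraries. Its normalized read count was 265 with neither exercise nor tumor (interval 233 to 299.8), 613 with exercise alone (570.0 to 658), 54.7 with the tumor alone (40.7 to 71.8) and 175 with both (149.5 to 205). These intervals did not overlap, and the order from high to low was normal exercise, normal control, cancer exercise and cancer control. The exercised library was the higher one both without a tumor, by 1.21 on the log2 scale (interval 1.002 to 1.42), and with one, by 1.66 (1.22 to 2.17). The difference of these exercise effects was 0.46, with a counting interval of -0.03 to 0.97 that included 0. The tumor library was the lower one without exercise, by 4.77-fold, and with exercise, by 3.48-fold.

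Six4 and Six5 were near the lower limit of these libraries. Six4, a factor of embryonic muscle, had 9 reads with neither exercise nor tumor, 0 with exercise alone, 6 with the tumor alone and 2 with both. Taking 3 reads as the limit for a count of 0, it was at least 3.94-fold lower with exercise alone than with neither, and the 95% interval, which also covers counting error in the 9 reads, ended at -1.37 on the log2 scale. In cancer exercise against cancer control its difference of -1.21 passed the 2-fold limit, but the ratio of scaled reads, -1.57 on the log2 scale, had an interval of -4.91 to 0.91. No direction could be read for Six4 at this depth in the comparisons other than that of exercise without a tumor.

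Six5, which neighbours the myotonic dystrophy gene Dmpk, had normalized read counts of 31.9, 19.4, 22.5 and 19.5 in the 4 libraries. Its intervals overlapped in every pair of libraries, with bounds between 11.6 and 45.5. The widest difference, -0.69 with exercise in mice without a tumor, had an interval of -1.55 to 0.11. A change of Six5 was therefore not detectable at this depth, and its intervals still allow differences beyond 2-fold in 3 of the 4 comparisons.

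Eya1, a coactivator in muscle that is mutated in branchio-oto-renal syndrome, was highest in normal control and lowest in normal exercise. Its normalized read count was 238 with neither (interval 208 to 272), 98.8 with exercise alone (82.1 to 118), 192 with the tumor alone (165 to 222) and 143 with both (119.6 to 169.5). It fell with exercise in mice without a tumor by 1.26 on the log2 scale, or 2.40-fold, with an interval of -1.60 to -0.94. With exercise in tumor-bearing mice the difference was -0.42 (-0.76 to -0.09), under the 2-fold limit. The difference of the exercise effects was 0.84, with a counting interval of 0.39 to 1.30. The tumor differences were -0.31 without exercise and 0.53 with it, both under 2-fold. Marker sums of several tissues were lower with exercise in the same healthy pair. Each sum is weighted towards its most abundant markers. Without and with exercise, fibroblast markers summed to 87100 and 46310, tendon markers to 10540 and 5067, and muscle fibre markers to 916500 and 763400. Endothelial, satellite cell and neutrophil sums were higher with exercise there. The 5 nerve and Schwann cell markers summed to 5244 and 2976 normalized reads without a tumor, without and with exercise, and to 5758 and 2088 with one. The 4 fat markers summed to 14240 and 4492 without a tumor, and to 4351 and 9302 with one. The part of any of these tissues in the level of Eya1 was not tested. Eya1 and Six2 thus stood in opposite order in the healthy pair of libraries, in which Six2 was the higher one with exercise and Eya1 the lower one.

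Eya2, another coactivator, which sine oculis homeobox proteins draw into the nucleus, was lower in both libraries with a tumor than in both without one. Its normalized read counts were 153 and, with exercise, 140.3 in mice without a tumor, against 90.0 and 80.2 in mice with one. The intervals of the libraries without a tumor (129 to 180.3 and 120.1 to 163) lay above those of the libraries with one (71.8 to 111 and 62.9 to 101). The tumor difference was -0.76 without exercise (interval -1.17 to -0.37) and -0.80 with exercise (-1.22 to -0.41). These comparisons have no library in common, and both were under 2-fold. The exercise differences, -0.12 and -0.17, had intervals that spanned 0.

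Eya3, a broadly expressed member of the family, varied least among the 7 genes, with a highest library 1.45-fold above the lowest. It had normalized read counts of 106, 116, 102 and 148 in the 4 libraries. Of its 4 comparisons, the 2 that use cancer exercise had intervals without 0. The differences were 0.54 (0.16 to 0.94) against cancer control and 0.35 (0.01 to 0.70) against normal exercise. The second interval began just above 0. Scaling the reads by library total instead lowered that difference to 0.20, and its interval was not recomputed.

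Eya4, the family member linked to inherited deafness and cardiomyopathy, was highest in cancer control. It had 14 reads with neither, 32 with exercise alone, 58 with the tumor alone and 10 with both, or normalized read counts of 14.9, 25.9, 62.0 and 10.9. The interval in cancer control (47.2 to 80.3) lay above those of the other libraries, which ran from 5.19 to 36.6 and overlapped one another. The difference was 1.98 for the tumor without exercise (interval 1.20 to 3.02), -2.41 for exercise with a tumor (-3.65 to -1.54) and -1.18 for the tumor with exercise (-2.45 to -0.20). Cancer control was also the library with epidermal transcripts, among them Flg2 (148 reads, 0 in the other libraries) and Lor (199 reads, at most 4 in the others). Their part in the level of Eya4 was not tested. In the comparison of cancer exercise with normal exercise, which leaves that library out, Eya4 was lower with the tumor.

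**Figure D2:**
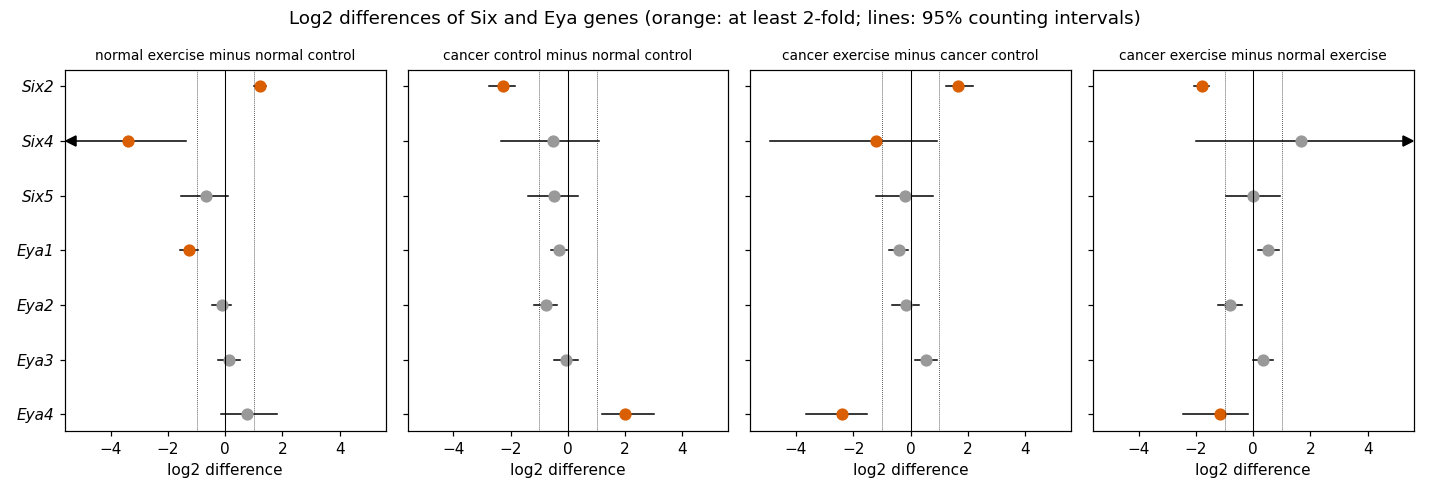
Log2 difference (x axis) of each of the 7 genes (y axis) in the 4 comparisons, 1 library against 1, with 95% counting intervals as lines, arrowheads where an interval runs past the panel, dotted lines at 2-fold, and orange points for genes called changed. Six2, selected by the study on these libraries, was called in all 4 panels. Eya4 was called in 3 of them, and Six5, Eya2 and Eya3 in none.

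Counted over the 7 members, 3 differed at least 2-fold between normal exercise and normal control (Six2 higher, Six4 and Eya1 lower), where 21.5% of the 14518 genes past the minimum did (9.44% higher, 12.1% lower). Between cancer control and normal control 2 members did (Six2 lower, Eya4 higher), against 45.1% of all genes (20.9% higher, 24.2% lower). Exercise in tumor-bearing mice gave 3 members (Six2 higher, Six4 and Eya4 lower), against 30.6% (15.6% higher, 15.1% lower). The tumor in exercised mice gave 2 (Six2 and Eya4, both lower) of the 6 past the minimum, against 30.3% (13.9% higher, 16.3% lower). The study selected Six2 on these libraries for passing 2-fold in the first 3 comparisons given here, so its calls there follow from that selection. The called members had both directions in the first 3 of these comparisons, where Six2 was the only one with its direction. The median of the members was -0.12, -0.48, -0.20 and -0.40 on the log2 scale in these comparisons, against -0.01, -0.04, 0.01 and -0.03 over all genes past the minimum. Each comparison shares a library with others: normal control is in the first and the second, cancer control in the second and the third, and cancer exercise and normal exercise recur in the fourth.

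The makeup of the Eya family differed between libraries. Among the Eya genes the total was 513, 381, 445 and 382 normalized reads in the 4 libraries. Eya1 was the leading gene in normal control with 46.5% of Eya reads (interval 42.0% to 51.0%) and in cancer control with 43.0% (38.2% to 47.9%). In normal exercise its share was 26.0% (22.0% to 30.2%), below Eya2 at 36.8% (32.4% to 41.3%). In cancer exercise Eya1 and Eya3 had 37.4% and 38.8%, and their intervals overlapped. Eya4 ranged from 2.83% in cancer exercise to 13.9% in cancer control. In both pairs the share of Eya1 was lower in the exercised library, although the intervals overlapped in the tumor-bearing pair.

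**Figure D3:**
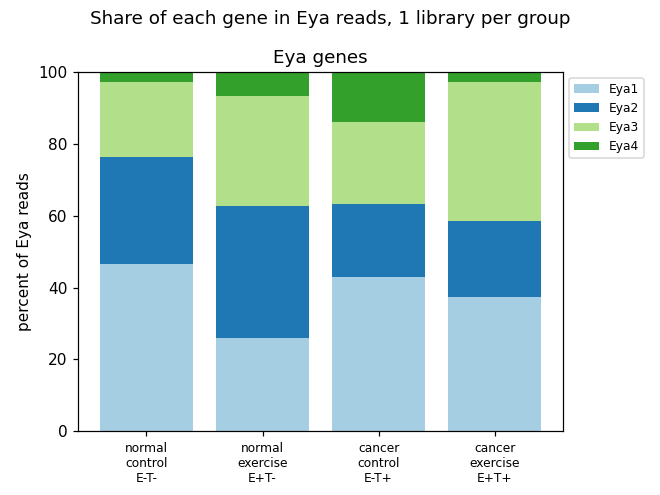
Percent of Eya reads taken by each gene (y axis, 0 to 100) in the 4 libraries (x axis), 1 library per group. Eya1 took 46.5% of Eya reads with neither and 26.0% with exercise alone.

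Other genes of the network were taken from a list of 15 symbols for corepressors, binding partners and upstream Pax factors, of which 14 had a row and 11 passed the minimum in the comparisons against normal control. With exercise in healthy mice 1 partner passed 2-fold upward and 1 downward, against 9.44% and 12.1% of all genes. With the tumor without exercise 1 was higher and 6 were lower, against 20.9% and 24.2%. Exercise in tumor-bearing mice gave 2 higher and 0 lower of 9, against 15.6% and 15.1%. The tumor in exercised mice gave 1 higher and 3 lower of 11, against 13.9% and 16.3%. The partner medians were -0.23, -1.11, 0.49 and -0.31 on the log2 scale in these comparisons. Over all genes past the minimum they were -0.01, -0.04, 0.005 and -0.03. Six3 and Six6, genes of the developing eye and forebrain, had 0 reads in every library.

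Sobp, named as a binding protein of sine oculis, the fly homologue, was the most abundant partner after Aes. It had normalized read counts of 1171 with neither, 2791 with exercise alone, 162 with the tumor alone and 363 with both. The log2 difference was 1.25 with exercise in healthy mice (interval 1.15 to 1.35) and 1.16 in tumor-bearing mice (0.88 to 1.45). It was -2.85 with the tumor without exercise and -2.94 with exercise. The order of the libraries was that of Six2, as it also was for Dach1 and Dmpk below. For these 2 genes, however, the order of the healthy pair was not settled. Normal exercise was above normal control by 0.09 for Dach1 (interval -0.23 to 0.41) and by 0.09 for Dmpk (-0.01 to 0.20).

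The partner with the most reads was Aes, a short Groucho-type corepressor, which fell 2.16-fold with the tumor without exercise and was otherwise within 2-fold. Tle1, a full-length Groucho corepressor, rose 2.40-fold in the same comparison, from a normalized read count of 314 to 755. Ski, a relative of the DACH proteins, was within 2-fold throughout, from 617 to 898. Dach1, a corepressor named after its values were seen, had normalized read counts of 148, 157, 52.5 and 82.3, and fell 2.78-fold with the tumor without exercise (interval -1.99 to -1.01 on the log2 scale). Its tumor difference in exercised mice was -0.93 (-1.34 to -0.54).

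Six5 (chr7:19094594-19098549, plus strand) begins 772 bases after the end of Dmpk, which encodes the kinase of myotonic dystrophy. Dmpk had normalized read counts of 1290, 1377, 282 and 884 in the 4 libraries. It was 4.57-fold lower with the tumor without exercise and 3.13-fold higher with exercise in tumor-bearing mice, where Six5 differed by -0.48 (interval -1.38 to 0.35) and -0.20 (-1.20 to 0.77). Neither interval of Six5 reached the difference of Dmpk, at -2.19 and 1.65. The other members lie at chr17:85684277-85688274 (Six2, minus strand), chr12:73099609-73113456 (Six4, minus), chr1:14168954-14310235 (Eya1, minus), chr2:165595032-165771727 (Eya2, plus), chr4:132638987-132724765 (Eya3, plus) and chr10:23102963-23350786 (Eya4, minus) of mm10. In GENCODE M21 none of the 7 members overlaps another gene that has a row in the files.

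Likeness to Six2 was measured as the root mean square difference of log2 values, each centred on its own mean over the 4 libraries, among the 12054 genes that averaged 16 or more normalized reads. The nearest genes were D1Ertd622e (0.10), Trim13 (0.12), Agpat2 (0.16), Tmem80 (0.18) and Pex26 (0.19). Trim13 encodes a ubiquitin ligase of the endoplasmic reticulum, Agpat2 an enzyme of triglyceride synthesis and Pex26 a peroxisome biogenesis factor. D1Ertd622e had 126 reads with neither exercise nor tumor, 400 with exercise alone, 26 with the tumor alone and 71 with both. Sobp ranked 144 by this measure, Dmpk 182 and Dach1 635. With 4 libraries such a measure describes these samples alone. Among the fellow members Eya2 was nearest to Six2, at 1.01, and the closest pair was Six5 and Eya1, at 0.28.

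Markers of connective tissue moved with Six2 in part of the comparisons. The summed normalized read count of 9 tendon markers was 10540, 5067, 1515 and 4112 in the 4 libraries. In cancer control 4 of the 9 (Chad, Comp, Kera and Ptx4, named for this) were without reads, and in cancer exercise Ptx4 was. The 9 fibroblast markers summed to 87100, 46310, 39000 and 39150. Most of this sum was Dcn alone, at 57890, 37430, 35360 and 34760. Within the tendon sum Thbs4 alone had 6038, 3455, 1346 and 3714. With the tumor without exercise all 9 tendon markers and 6 fibroblast markers were at least 2-fold lower, as Six2 and 24.2% of all genes were. With exercise in tumor-bearing mice 5 of the 7 tendon markers past the minimum and 4 fibroblast markers were at least 2-fold higher, as Six2 and 15.6% of all genes were. Of these tendon markers Mkx (1 and 9 reads without and with exercise), Comp (0 and 11) and Kera (0 and 7) had few reads. Tnmd and Scx were within 2-fold. With exercise in healthy mice, however, 5 tendon and 6 fibroblast markers were at least 2-fold lower, against 12.1% of all genes, and none was higher, while Six2 was 2.31-fold higher. With the tumor in exercised mice 7 tendon and 6 fibroblast markers were at least 2-fold lower, against 16.3% of all genes. Scx, the defining tendon transcription factor, had normalized read counts of 309, 190, 105 and 147. The part of connective tissue in the level of Six2 was not tested, and in whole muscle fewer cells of a type and less RNA per cell cannot be told apart.

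**Figure D4:**
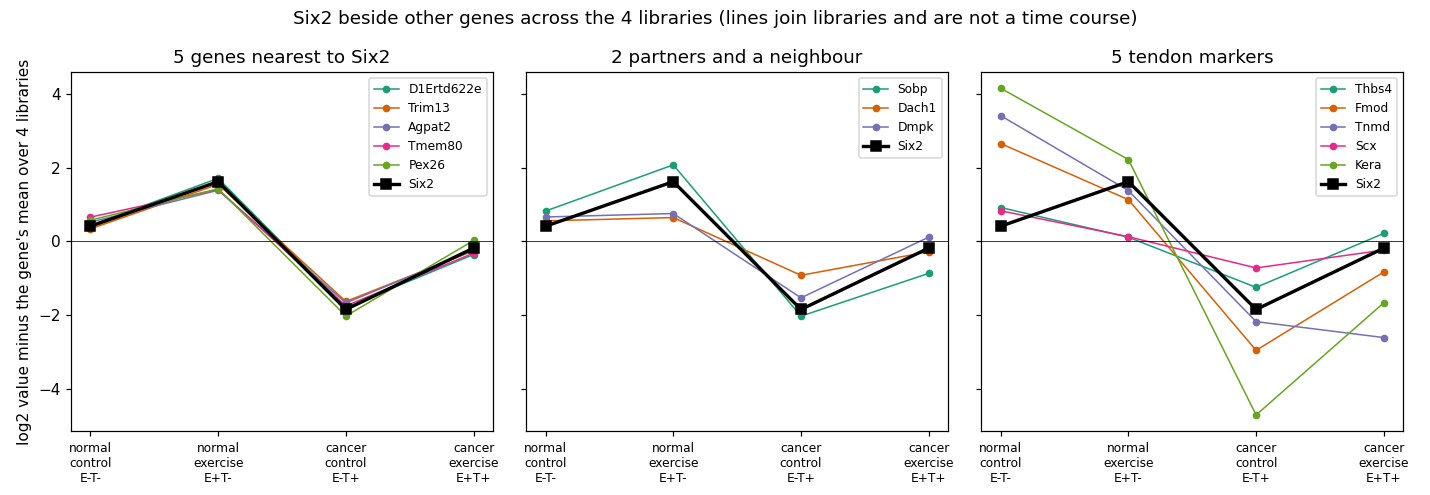
Log2 value minus the mean of each gene over the 4 libraries (y axis) for Six2 (black squares) with its 5 nearest genes (left), with Sobp, Dach1 and Dmpk (middle) and with 5 tendon markers (right), in the 4 libraries (x axis). Lines join the points of a gene. Sobp, Dach1 and Dmpk had the same order of libraries as Six2, but the healthy exercise difference of Dach1 and of Dmpk had an interval that included 0. The tendon markers were lower with exercise in healthy mice, where Six2 was higher.

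Known muscle targets of sine oculis homeobox factors were followed as a list of 20 genes, all past the minimum. With exercise in healthy mice 1 was at least 2-fold higher and 2 were lower, where 9.44% and 12.1% of all genes were. With the tumor without exercise 4 were higher and 8 lower, against 20.9% and 24.2% of all genes. Exercise in tumor-bearing mice gave 5 higher and 2 lower, against 15.6% and 15.1%, and the tumor in exercised mice gave 3 higher and 3 lower, against 13.9% and 16.3%. The list medians were -0.40, -0.13, 0.35 and 0.08 on the log2 scale in these comparisons. The targets named below include all 12 that passed 2-fold with the tumor without exercise, and those beyond the 5 most abundant were chosen after their values were seen.

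The 5 most abundant targets were Tnnc2, Tnni2, Myh4, Tnnt3 and Aldoa. Tnni2 and Tnnt3, the fast troponins I and T, stayed within 0.28 on the log2 scale in all 4 comparisons. Myh4, the myosin heavy chain of the fastest fibres, and Aldoa, the glycolytic aldolase, differed by at most 0.78 in either direction. Tnnc2, the fast troponin C, fell with the tumor by 1.84 on the log2 scale without exercise and by 1.06 with it. Other genes of fast fibres were lower with the tumor without exercise. Pvalb, a calcium buffer, was 18.2-fold lower, Myl1 and Mylpf, fast myosin light chains, 9.32-fold and 4.07-fold, and Eno3, the muscle enolase, 6.58-fold. Myh1, another fast myosin heavy chain, was 2.47-fold higher.

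The myogenic regulators on the list did not share a direction. Myog, whose promoter element is printed above, had normalized read counts of 76.6 with neither, 174 with exercise alone, 206 with the tumor alone and 185 with both. It rose 2.26-fold with exercise in healthy mice (interval 0.80 to 1.59 on the log2 scale) and 2.66-fold with the tumor (1.03 to 1.84). Myod1, the myoblast determination factor, had 306, 289, 21.5 and 213 in the same order. It was 13.7-fold lower with the tumor without exercise (interval -4.57 to -3.18) and 9.53-fold higher with exercise in tumor-bearing mice (2.65 to 4.06). Myf6 and Myf5, the remaining regulators, were lower with the tumor without exercise, by 2.06-fold and 5.67-fold. Both were higher with exercise in tumor-bearing mice, by 3.34-fold and 4.62-fold, where Myog differed by -0.15 (-0.46 to 0.15). Ezr, a linker of membrane and cytoskeleton, and Ccnd1, cyclin D1, went with Myog in the tumor comparison. Ezr rose 2.88-fold and Ccnd1 2.39-fold with the tumor without exercise, and fell 2.32-fold and 4.40-fold with exercise in tumor-bearing mice.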

How the data were processed

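Libraries of gastrocnemius RNA were made with the QuantSeq 3′ kit, 1 for each of the 4 groups, and groups were taken from the sample titles. Per the methods and the submitters' processing notes, the authors aligned reads with Bowtie2 (build mm10), counted them per gene with bedtools, and applied quantile normalization with edgeR; versions, annotation and strand handling are not given in the sources used here. The authors deposited each value on a log2 scale, as the normalized read count with 1 added.

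Whole reads were rebuilt by fitting 1 size factor per library and 1 dispersion (0.339) to the quantile adjustment. With these, 100% of values were matched within 0.0006, and the reads of all 7 members were tied to single numbers. The library totals (10647483 to 13226061 reads) are approximate, since the reads of the most abundant genes were not tied to a single number. The procedure was tested on simulated data. For ratios, the 95% Clopper-Pearson interval of one library's share in the reads of the pair was scaled by the size factors. Intervals of levels are exact Poisson intervals. The interval for a difference of effects, added after the data were seen, used the summed reciprocal reads of the 4 libraries. Without molecular identifiers, intervals and floors of 3 reads cover counting error only. Pseudocount 1, a 2-fold threshold and a minimum of 4 normalized reads were used, the thresholds being those of the methods.

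All 7 members were named, and up to 5 genes of each list by mean level, plus the 5 genes nearest to Six2. Genes outside this rule, among them Myog and single tendon, epidermis and satellite cell markers, were chosen after their values were seen, and 1 gene of the partner and neighbour lists is not reported here. The lists of tendon, fibroblast, satellite cell, epidermis, muscle fibre, endothelium, macrophage, neutrophil, nerve and fat markers were computed. The members and lists were chosen with earlier results of these data known. Python 3.11.15, NumPy 2.4.6 and SciPy 1.17.1 were used, with gene positions from GENCODE M21.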

Additional observations from a re-analysis of the deposited data

Results flagged for a closer look

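These results are ones in which the same contrast went in opposite directions, at least 2-fold each way, in the 2 backgrounds. With 1 library a group the difference was not tested. For Eya4 the tumor difference was 1.98 on the log2 scale without exercise and -1.18 with exercise, a difference of -3.16. It had 14 reads with neither exercise nor tumor, 32 with exercise alone, 58 with the tumor alone and 10 with both. The first of these differences uses cancer control, the library with epidermal transcripts. For Myf5, an early myogenic factor on the target list, the exercise difference was -1.45 without a tumor and 2.21 with one, and the tumor difference was -2.50 and 1.16, so that both contrasts differed by 3.66. Myf5 had 39 reads with neither exercise nor tumor, 18 with exercise alone, 6 with the tumor alone and 31 with both. For Dach2, a corepressor on the partner list, both contrasts differed by 5.70, from 6, 0, 1 and 13 reads in the same order, and with a library at 0 this size depends on the pseudocount.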

How the results depend on the processing

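The settings tried were TMM, total count and median-of-ratios scaling of the rebuilt reads, reads thinned to the smallest library, a pseudocount of 4, no minimum, a minimum of 16, and fold thresholds of 1.5 and 4. Under the scaling, pseudocount and minimum settings each count of changed members stayed within 1.5 times the one given. A threshold of 4-fold left 1 member (Six4) for exercise without a tumor, 1 (Six2) for the tumor without exercise, 1 (Eya4) for exercise with a tumor and 0 for the tumor with exercise. A threshold of 1.5-fold gave 5 members for exercise without a tumor. Six4 was not called with a minimum of 16 in either exercise comparison, nor with a pseudocount of 4 in that of tumor-bearing mice. All 140 recomputed log2 differences of members stayed within their counting intervals, and no called difference changed sign. For Six4 this says little in the comparisons with normal exercise, where the interval is open on 1 side. Its difference with exercise without a tumor went from -3.39 to -1.755 with a pseudocount of 4. The interval there ended at -1.37, short of the 4-fold threshold that Six4 passed. Uncalled values near 0 did under some scaling, to 0.03 for Eya2 with exercise without a tumor, 0.02 for Eya3 with the tumor without exercise and -0.15 for Six5 with the tumor in exercised mice. Total count scaling moved the median of all genes by 0.16 for exercise without a tumor and by -0.155 for the tumor with exercise. Thinned reads were also scaled by total count. They gave 1719 genes higher and 1372 lower for exercise without a tumor, against 1371 and 1750 as deposited. Total count scaling without thinning gave 1685 and 1502. No paired analysis was possible because each group has 1 library and the labels number no replicates. Leaving out a replicate was not possible for the same reason. The depth limits Six4, Six5 and Eya4 most.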

Other observations

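Satellite cell genes mark the stem cells of muscle. Pax7, the defining marker, had 23 reads with neither exercise nor tumor, 27 with exercise alone, 2 with the tumor alone and 0 with both. Between the exercised libraries the tumor library was at least 6.74-fold lower against the limit of 3 reads, with a 95% interval that ended at -2.35 on the log2 scale, and Pax7 is named after its values were seen. Cdh15, a cadherin of satellite cells and myoblasts, had normalized read counts of 117, 164, 229 and 231 in the same order. The summed normalized read count of the 7 satellite cell markers was 320.1, 373, 411 and 338. Exercise moved 1 of these 7 up and 2 down past 2-fold in healthy mice, against 9.44% and 12.1% of all genes. In tumor-bearing mice it moved 1 up and 2 down of the 5 past the minimum, against 15.6% and 15.1%. The tumor moved 0 up and 2 down of the 6 past the minimum in sedentary mice, against 20.9% and 24.2% of all genes. In exercised mice it moved 1 up and 4 down of 7, against 13.9% and 16.3%. Endothelial markers had 0 of 5 changed at least 2-fold in 3 comparisons, where 21.5% to 45.1% of all genes were. With the tumor in exercised mice 1 was lower, against 16.3% of all genes. Of 6 macrophage markers 2 were higher with the tumor without exercise, against 20.9% of all genes. With exercise in tumor-bearing mice 1 was lower, against 15.1%, and with the tumor in exercised mice 1 was higher, against 13.9%. Neutrophil markers were higher with the tumor in 3 of the 3 past the minimum without exercise and in 4 of 4 with it. The shares of all genes were 20.9% and 13.9%. Of 5 nerve markers 1 was lower with the tumor without exercise and 3 with exercise in tumor-bearing mice, against 24.2% and 15.1% of all genes. Of 4 fat markers 3 were lower with exercise in healthy mice, against 12.1%, and 4 with the tumor without exercise, against 24.2%. With exercise in tumor-bearing mice 2 of the 3 fat markers past the minimum were higher, against 15.6%. The tumor in exercised mice gave 1 higher and 1 lower of 4, against 13.9% and 16.3%.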
